A study of Populus ussuriensis with 20 samples.

Results

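Of 39538 gene models measured at the base of poplar stem cuttings, 33 (0.0835%) were lower in plants overexpressing PuHox52 (OE) than in wild type (WT) at each of 5 times after cutting. They were chosen by their measured values. CPM is a gene's count times 1000000 divided by the library's summed count. At 6, 12, 24, 48 and 96 h, both OE libraries had to have a strictly lower CPM than both WT libraries of that time. The opposite pattern, both OE libraries above both WT libraries at all 5 times, was met by 51 gene models (0.129%). Because the rule used the difference between OE and WT, that difference is described here and not tested, and neither is its change over the times. What the rule did not use is each gene's position, its neighbours and its own change over time within a genotype.

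The plants were Populus ussuriensis. In OE cuttings PuHox52 was driven by the viral 35S promoter, which is active in most cell types; the others were WT. Groups were OE and WT at 6, 12, 24, 48 and 96 h after cutting, with 2 libraries each and 20 in all. Each library was made from the basal 0.5 cm of 40 pooled in vitro cuttings. The labels give 2 different ages for the plants, so none is stated. The number of transgenic lines behind the OE cuttings is unknown here; were it 1 line, all 10 OE libraries would share whatever else sets that line apart.

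PuHox52 is a homeodomain-leucine zipper transcription factor of class I, a plant family whose members bind DNA as dimers and are known for roles in growth and in responses to water shortage. Adventitious roots are roots that form on stems. In cuttings they arise near the wound from cells by the vascular tissue, under the control of auxin and other hormones. The deposited tables do not pair gene IDs with names or products, so nothing is said of what the 33 genes encode. For the same reason the level of PuHox52 and the markers of stem tissue could not be looked up. The tables hold no sequences.

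Libraries held 10399262 to 27472303 counts, with counts at 28168 to 29980 gene models. Both libraries of every group differed by more than sampling noise, with a chi-square per degree of freedom of 4.48 to 16.2. In bulk samples, fewer cells of a type and less RNA per cell cannot be told apart.

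The size of the difference is given for each time as the log2 of the OE mean CPM plus 0.5 over the WT mean CPM plus 0.5, and then averaged over the 5 times. This mean difference had a median of -0.69 over the 33 genes, with quartiles of -0.91 and -0.44 and a range of -1.82 to -0.24. Over the 26391 genes tested it had a median of 0.03 with quartiles of -0.03 and 0.10, and over the 51 genes higher in OE at every time a median of 0.26. Of the 33 genes, 6 had a mean difference of -1 or below, where all genes tested held 13. The median over the 33 was -0.69 at 6 h, -0.65 at 12 h, -0.78 at 24 h, -0.62 at 48 h and -0.60 at 96 h. In the 10 single OE libraries, set against the WT mean of their time, it lay between -0.81 and -0.61. The rule required a negative value in every OE library, so this does not show whether any library stood apart.

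**Figure D1:**
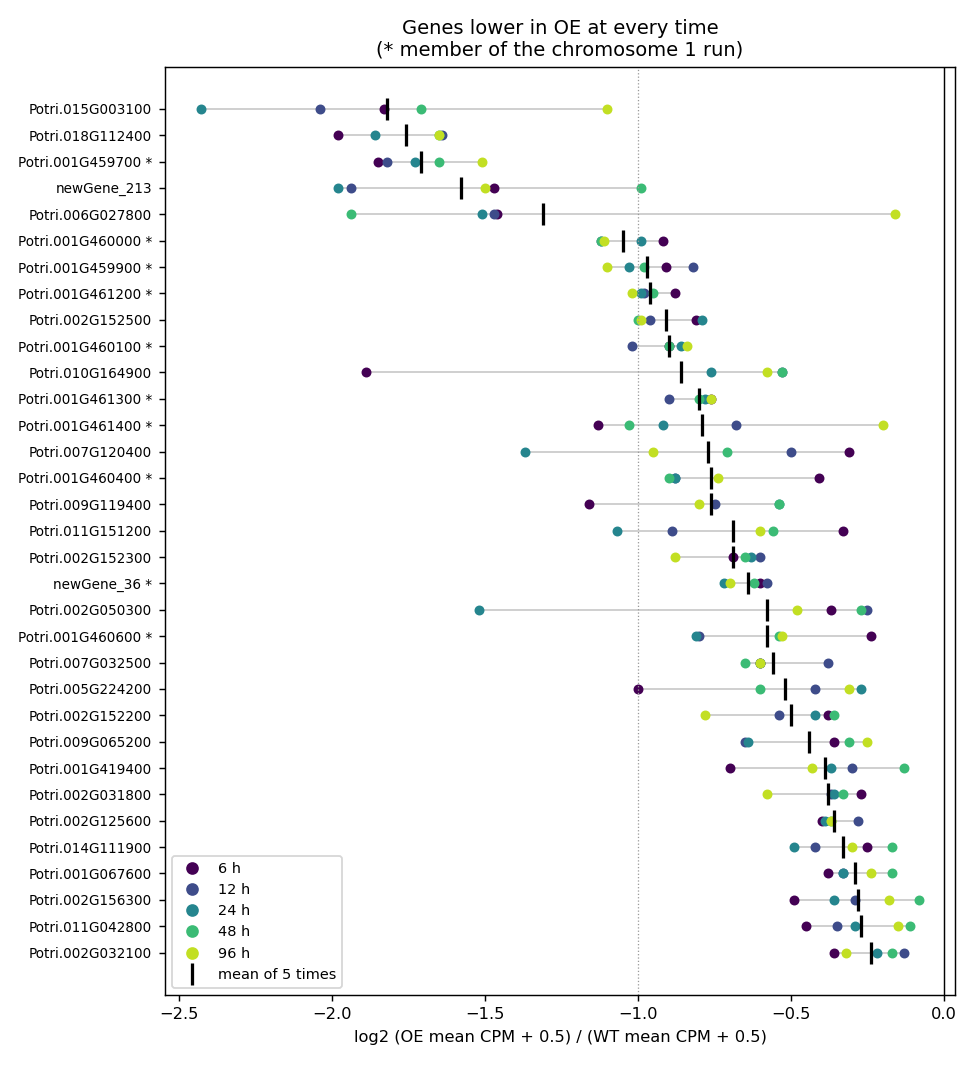
Log2 ratio of mean CPM in OE over WT (each with 0.5 added) for the 33 genes, with 1 dot per time and a bar at the mean of the 5 times; asterisks mark the 10 genes of the chromosome 1 run. Mean differences run from -1.82 to -0.24, and the dots lie close together for some genes (Potri.001G461200) and far apart for others (Potri.006G027800).

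Among the genes with a mean of at least 1 CPM, most differences were similar in size from time to time. The rule favours this, since it left out genes whose difference vanished or reversed at any time. Over the 27 genes with a mean of at least 1 CPM, the standard deviation of the difference over the 5 times had a median of 0.14 on the log2 scale, and 17 genes were under 0.2. The smallest of these 27 was that of Potri.001G461200.v3.0, with differences between -1.02 and -0.88. In lower genes the added 0.5 CPM narrows the differences, so their steadiness is not read. The largest of all 33 was nonetheless that of a low gene, Potri.006G027800.v3.0, at -1.94 at 48 h and -0.16 at 96 h, with 20 counts over all OE libraries and 201 over all WT libraries. Its WT libraries at 96 h held 3 counts together, which leaves little room for a difference there. The largest difference of a gene fell at 6 h for 12 genes, at 12 h for 3, at 24 h for 8, at 48 h for 5 and at 96 h for 5.

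For 5 of the 33 genes, every one of the 10 OE libraries lay below every one of the 10 WT libraries, whatever the time. Any gene model separated in this way meets the rule, so only these 5 of the 39538 gene models were. The separation comes from the values that chose the genes and is described only. The 5 were Potri.015G003100.v3.0, Potri.001G459700.v3.0, Potri.001G460000.v3.0, Potri.001G459900.v3.0 and Populus_trichocarpa_newGene_213. In the other 28 the ranges of the genotypes overlapped once the times were pooled, and the rule held only within times.

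Potri.015G003100.v3.0 (chromosome 15, 236720 to 239777, minus strand) had the largest mean difference, -1.82, or 3.54-fold lower in OE. At 6 h it had 4.04 and 2.6 CPM in the OE libraries, against 12.5 and 13.6 CPM in the WT libraries. At 12 h it had 6.39 and 4.38 CPM in OE, against 20.4 and 26.9 CPM in WT. At 24 h it had 4.29 and 4.13 CPM in OE, against 21.7 and 28.1 CPM in WT. The difference was largest at this time, at -2.43, with a WT mean above its own 6 h value and an OE mean close to its own. At 48 h it had 4.16 and 4.38 CPM in OE, against 14.5 and 15.8 CPM in WT. At 96 h it had 11.7 and 11.9 CPM in OE, against 25.2 and 26.9 CPM in WT. The smallest difference, -1.10, was at 96 h, where the OE level was 11.8 ± 0.138 CPM (SD, n = 2) and so the highest of the OE groups. The gene overlaps Potri.015G003000.v3.0 on the opposite strand, which had a mean difference of 0.07. No strand setting is stated for the counting, so reads of this gene and the overlapping one cannot be told apart. Another model is also overlapped by 8 others of the 33 genes, not all on the opposite strand. Potri.006G027800.v3.0, Potri.007G120400.v3.0 and Potri.009G065200.v3.0 overlap a model on their own strand, and Potri.002G156300.v3.0 overlaps models on both strands. The model that overlaps Potri.001G459700.v3.0 had no counts. The 3 genes outside the 33 whose log2 CPM followed it most closely over the 20 libraries were Potri.018G063900.v3.0 (Pearson's r 0.764), Potri.012G066700.v3.0 (0.726) and Potri.001G278400.v3.0 (0.722). They met the rule at 3, 3 and 4 times, and the genotype difference is part of that likeness.

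The next largest difference among genes with a mean of at least 1 CPM was that of Potri.001G459700.v3.0 (chromosome 1, 49360630 to 49366179, minus strand), at -1.71, or 3.28-fold lower in OE. At 6 h it had 20.6 and 14.9 CPM in OE, against 72.1 and 58.5 CPM in WT. At 96 h it had 8.09 and 9.01 CPM in OE, against 27.1 and 23.5 CPM in WT. The level thus fell over the time course in both genotypes while the ratio between them stayed between -1.85 and -1.51 on the log2 scale. Potri.002G152500.v3.0 (chromosome 2, 11518715 to 11523751, minus strand) showed the same parallel course, with a mean difference of -0.91. It had 37.4 and 29.3 CPM in OE at 6 h, against 53.3 and 64.4 CPM in WT. At 96 h it had 16.4 and 16.2 CPM in OE, against 31.1 and 34.9 CPM in WT. Potri.007G120400.v3.0 (chromosome 7, 13950449 to 13951319, plus strand; mean difference -0.77) had a difference that varied with the time, from -0.31 at 6 h to -1.37 at 24 h. At 24 h it had 22.2 and 23.8 CPM in OE, against 60.3 and 60.4 CPM in WT, the highest level of the gene in WT. It overlaps Potri.007G120300.v3.0 on the same strand, which had a mean difference of -0.14. Potri.001G460000.v3.0, with a mean difference of -1.05, was level in both genotypes, at 7.42 to 11.8 CPM in the OE libraries and 17.1 to 23.8 CPM in the WT libraries.

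**Figure D2:**
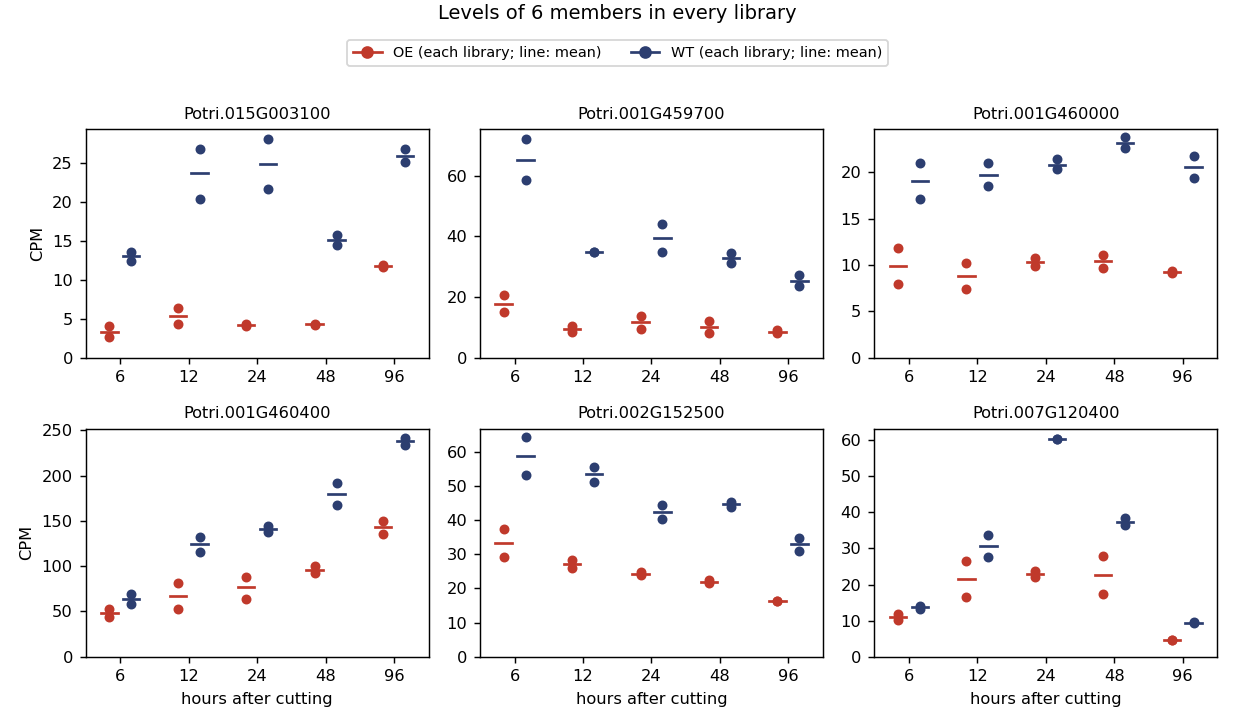
CPM of 6 of the genes described in the text in every library, by hours after cutting, with OE left of WT at each time; dots are single libraries and lines the means of 2. At every time both OE dots lie below both WT dots, as the rule requires; Potri.001G460400 stands highest at 96 h in both genotypes, while Potri.007G120400 peaks at 24 h in WT (60.3 and 60.4 CPM) and is lowest at 96 h.

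Genes with a low level made up a small part of the 33. Of these, 6 had a mean CPM under 1, and 4 had an OE library at 0 counts. Their mean differences are held down by the added 0.5 CPM. Some of the 6 had the largest ratios of counts, but others did not. The ratio of WT to OE counts, scaled by library size, was 1.61 for Potri.002G125600.v3.0 and 3.67 for Potri.009G119400.v3.0. It was 3.72 for Potri.009G065200.v3.0 and 11.2 for Potri.006G027800.v3.0. The following were named after their values were seen. Populus_trichocarpa_newGene_213 (chromosome 3, 10291183 to 10292882, plus strand) had 0 counts in 9 of 10 OE libraries and 3 counts in the remaining one, against 4 to 67 counts in each WT library. With a floor of 3 counts over both libraries of a group, it was at least 8.69-fold lower in OE at 6 h, at least 15.5-fold at 24 h, at least 6.05-fold at 48 h and at least 13.8-fold at 96 h. Over all times, the ratio of WT to OE counts scaled by library size was 72.5, with a 95% counting interval of 24.4 to 354. Potri.018G112400.v3.0 (chromosome 18, 13814780 to 13819328, plus strand) had 25 counts over the OE libraries and 261 over the WT libraries, a scaled ratio of WT to OE of 11.6 (interval 7.71 to 18.3). At 6 h it had 3 and 0 counts in OE, against 35 and 3 in WT, so that the order at this time rests on a few counts. Counting error alone is covered by these floors and intervals. The intervals pool all libraries of a genotype, although libraries of a group differed by more than sampling noise. They are no test of the difference, since the rule chose these genes for lower values in OE.

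Potri.010G164900.v3.0 was the lowest of the genes with a mean of at least 1 CPM, with a mean difference of -0.86. It had 0.539 and 0.244 CPM in OE at 6 h, against 2.88 and 2.71 CPM in WT. At 96 h it had 1.30 and 1.00 CPM in OE, against 2.05 and 1.90 CPM in WT. The groups were thus farthest apart at 6 h. Of the genes not described singly here, Potri.009G119400.v3.0 (-0.76), Potri.005G224200.v3.0 (-0.52), Potri.009G065200.v3.0 (-0.44), Potri.001G419400.v3.0 (-0.39), Potri.014G111900.v3.0 (-0.33) and Potri.011G042800.v3.0 (-0.27) stood alone on their stretches of chromosome. Potri.009G065200.v3.0, with 15 counts over the OE libraries and 50 over the WT libraries, was the 1 gene of the 33 too low to be tested over time.

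On the deposited FPKM scale, which allows levels of different genes to be compared per length, the 33 genes had a median of 6.19, against 8.8 over all genes tested. The highest were Potri.001G460100.v3.0, with a median of 92.8 FPKM over the OE libraries, against 185 FPKM over the WT libraries, and Potri.001G460400.v3.0, with 83.6 FPKM in OE, against 144 FPKM in WT. Next came Potri.002G156300.v3.0 (59.4 FPKM in OE, 72.7 in WT), Potri.001G067600.v3.0 (49 in OE, 63.4 in WT) and Potri.007G032500.v3.0 (40.6 in OE, 60.5 in WT). The 8 highest genes held both large and small differences. Potri.001G460100.v3.0, Potri.007G120400.v3.0 and Potri.001G460400.v3.0 stood beyond the median of the 33, at -0.90, -0.77 and -0.76, while Potri.002G156300.v3.0, Potri.001G067600.v3.0, Potri.002G031800.v3.0 and Potri.002G032100.v3.0 had mean differences of -0.28, -0.29, -0.38 and -0.24. For Potri.001G460100.v3.0 the deposited FPKM (mean 145) and the CPM per kilobase (39.3) disagree, so its rank on this scale is uncertain. The 33 genes had a median length of 1808 bases, against 1836 over all genes tested, and 17 lay on the plus strand.

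The genes were unevenly spread over the genome. Chromosome 1, with 4553 gene models, held 12 of them, and chromosome 2, with 2563 models, held 8. The remaining 13 were on 10 other chromosomes, with 1 or 2 on each. Of the 33, 10 formed 1 run on chromosome 1 between 49360630 and 49515163, where each lay at most 5 places from the next in the order of gene models. It was followed in length by a run of 3 on chromosome 2 (11505495 to 11523751) and a pair on chromosome 2 (2028270 to 2058388), and the other 18 stood alone. Coordinates are those of the deposited tables, whose genome build the labels leave unstated.

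The chromosome 1 run holds 17 gene models, of which 10 met the rule. Their mean differences had a median of -0.85 and ranged from -1.71 in Potri.001G459700.v3.0 at its start to -0.58 in Potri.001G460600.v3.0. Most were close to each other in size: Potri.001G460000.v3.0 stood at -1.05, Potri.001G459900.v3.0 at -0.97, Potri.001G461200.v3.0 at -0.96, Potri.001G460100.v3.0 at -0.90, Potri.001G461300.v3.0 at -0.80 and Potri.001G461400.v3.0 at -0.79. Potri.001G460400.v3.0 followed at -0.76 and Populus_trichocarpa_newGene_36 at -0.64. The median over the 10 genes was between -0.98 and -0.78 in every OE library, where the rule required a negative value. Of the 10 genes, 6 lay on the plus strand and 4 on the minus strand. Of the 7 models in the run that missed the rule, 3 had no counts in any library. The other 4 were tested and all had negative mean differences (median -0.51), from Potri.001G460300.v3.0 (-0.32) to Potri.001G461100.v3.0 (-0.68), which met the rule at 3 to 4 times. These 4 thus shared the direction of the mean difference, but most of them were low. Mean levels were 0.789 CPM for Potri.001G460300.v3.0, 0.681 for Potri.001G460500.v3.0 and 0.563 for Potri.001G460700.v3.0, against 10.3 for Potri.001G461100.v3.0. At 6 h Potri.001G460300.v3.0 had a difference of only -0.03.

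Among the 15 gene models on either side of the run, the difference went on in part. Before the run, 6 of 7 tested models had a negative mean difference, with a median of -0.27. These included Potri.001G459100.v3.0 (-1.27), which met the rule at 4 times, and Potri.001G459200.v3.0 (-1.39), which met it at 2. By time, 4 of the 7 were negative at 6 h, 7 at 12 h, 6 at 24 h, 5 at 48 h and 4 at 96 h. Means under 1 CPM were those of Potri.001G459300.v3.0 and Potri.001G459400.v3.0 before the run. After it they were those of Potri.001G461500.v3.0, Potri.001G462300.v3.0 and Potri.001G462400.v3.0. After the run, 7 of 8 tested models had a negative mean difference (median -0.53), but not at all times. Their median was 0.08 at 6 h, -0.76 at 12 h, -0.72 at 24 h, 0.01 at 48 h and -0.42 at 96 h. Near-identical neighbouring copies could share reads, which was not tested since the tables hold no sequences.

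**Figure D3:**
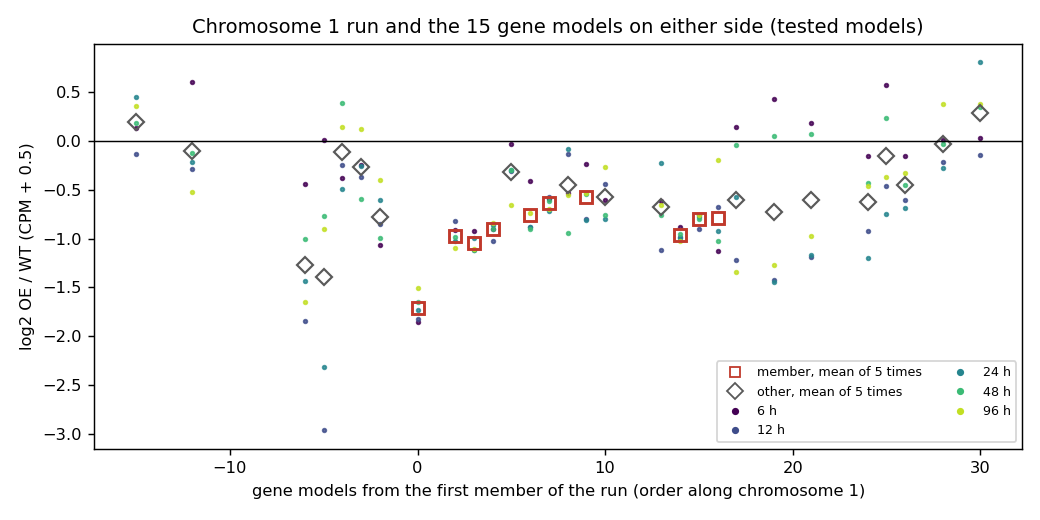
Log2 ratio of OE over WT (CPM plus 0.5) for tested gene models in and around the chromosome 1 run, in their order along the chromosome, with small dots for single times, squares for the mean of the 10 genes and diamonds for the mean of other models. The 10 squares lie between -1.71 and -0.58, and the diamonds between them are also below 0, while the outermost models of the window lie above it at 0.19 and 0.28.

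On chromosome 2, Potri.002G152500.v3.0 lay beside Potri.002G152300.v3.0 (mean difference -0.69) and Potri.002G152200.v3.0 (-0.50), all on the minus strand. The 1 further model between them had no counts. Potri.002G152300.v3.0 had a median of 2.91 CPM over the OE libraries, from 1.19 to 3.46, against a median of 5.02 CPM over the WT libraries, from 2.02 to 6. Potri.002G152200.v3.0 had a median of 14.8 CPM in OE, from 10.7 to 19.6, against 21.3 CPM in WT, from 15.4 to 24.6. The pair near the start of chromosome 2, Potri.002G031800.v3.0 and Potri.002G032100.v3.0, had smaller mean differences of -0.38 and -0.24.

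Several genes only just met the rule, and others only just missed it. Potri.002G156300.v3.0 met it at 48 h with at most 81.3 CPM in OE and at least 81.8 CPM in WT. Potri.011G151200.v3.0 met it at 6 h with at most 10.8 CPM in OE and at least 10.9 CPM in WT. Potri.002G032100.v3.0 met it at 12 h with at most 59.7 CPM in OE and at least 60.6 CPM in WT. Just outside were Potri.005G098900.v3.0, Potri.016G017300.v3.0 and Potri.002G205600.v3.0, which met it at 4 times. Each missed it at the remaining time by under 1% of the CPM, and their mean differences of -0.32, -0.37 and -0.33 were like those of genes just inside.

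At single times the rule's condition was met by many genes: both OE libraries lay below both WT libraries in 13.5% of gene models at 6 h, 12.8% at 12 h, 11.9% at 24 h, 12.2% at 48 h and 11.6% at 96 h. It was met at exactly 1 time by 11338 gene models, at 2 by 4513, at 3 by 1118, at 4 by 161 and at 5 by the 33. Of the 161, 36 missed it at 6 h, 35 at 12 h, 14 at 24 h, 37 at 48 h and 39 at 96 h.

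The change over time within a genotype played no part in the rule, and 32 of the 33 genes passed the filter on low counts and were tested for it with edgeR's quasi-likelihood test. Called means an adjusted p under 0.05. In OE, 23 of the 32 genes were called over the 5 times (71.9%), against 63.5% of all genes tested, and in WT 22 (68.8%), against 69.3%. These shares were near those of all genes. From 6 h to 96 h, in OE 14 genes were called higher at 96 h and 9 lower, where 31.1% and 28.9% of all genes were called. In WT 11 were called higher at 96 h and 9 lower, where 30.2% and 30.2% of all genes were called. Of the 32 genes, 18 (56.2%) were called in both genotypes, all 18 with the same sign. Over all genes tested, 48.8% were called in both, 99.3% of them with the same sign, which is near the shares of the 32 genes. The contrasts in OE and in WT compare different libraries, but they come from 1 fit over all 20 and share its estimate of the spread.

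The genes of the chromosome 1 run, all lower in OE by the rule, went both ways over time, as all genes tested did. Potri.001G460400.v3.0 had 136 and 150 CPM in OE at 96 h, against 43.4 and 52.3 CPM in OE at 6 h. In WT it had 242 and 234 CPM at 96 h, against 68.9 and 58.7 CPM at 6 h. It rose by a log2 fold change of 1.51 in OE (SE 0.167, adjusted p 1.34e-06) and of 1.89 in WT (SE 0.168, adjusted p 1.18e-07) in edgeR's quasi-likelihood fit, after Benjamini-Hochberg adjustment. Potri.001G461200.v3.0 rose by 1.24 in OE and 1.40 in WT (adjusted p 5.46e-06 and 6.51e-07). By the same test Potri.001G460100.v3.0 fell, with a log2 fold change of -1.41 in OE (SE 0.141, adjusted p 4.61e-07) and -1.41 in WT (SE 0.139, adjusted p 3.41e-07). Potri.001G459700.v3.0 fell as well, by a log2 fold change of -1.14 in OE and -1.38 in WT (adjusted p 0.000318 and 2.06e-05). Of the 10 genes of the run, 4 were called higher at 96 h than at 6 h and 3 lower in OE, where 31.1% and 28.9% of all genes tested were called. In WT 4 were called higher and 4 lower, where 30.2% and 30.2% of all genes tested were called. Potri.001G460000.v3.0 was called over time in neither genotype (adjusted p 0.619 in OE and 0.727 in WT). Potri.001G461400.v3.0 was called lower at 96 h in WT (-0.75, adjusted p 0.00581), where the call was lost without WT 6 h replicate 1 (0.165), and it was not called in OE (0.13, adjusted p 0.633).

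**Figure D4:**
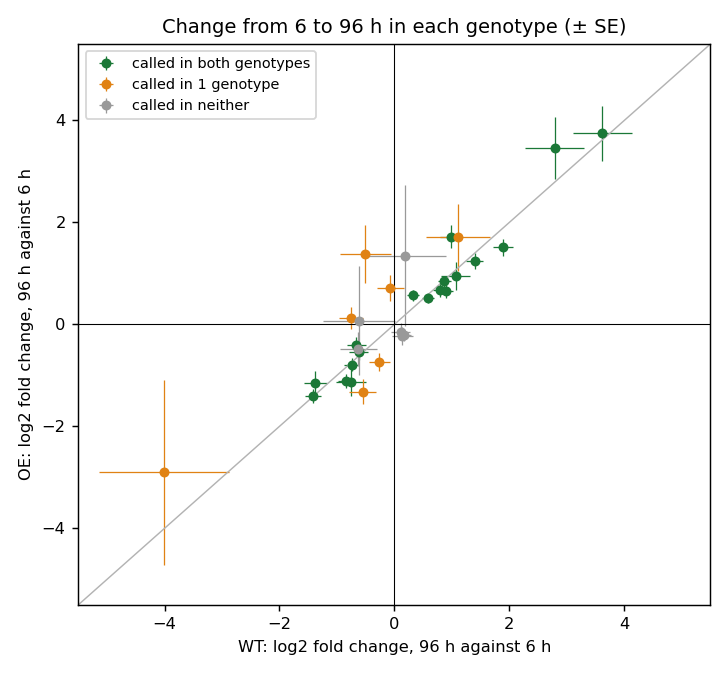
Log2 fold change at 96 h against 6 h in OE (vertical) and in WT (horizontal) for 31 of the 32 tested genes, with SE; Populus_trichocarpa_newGene_213 is left out because it had 0 counts in OE at both times. The 18 genes called in both genotypes lie in the upper right and lower left, and the diagonal marks equal change.

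Outside the run, Potri.002G050300.v3.0 rose most from 6 h to 96 h. It had 6.47 and 3.85 CPM in OE at 96 h, against 0.431 and 0.244 CPM in OE at 6 h. In WT it had 8.22 and 6.58 CPM at 96 h, against 0.481 and 0.678 CPM at 6 h. The log2 fold changes were 3.75 in OE (SE 0.536) and 3.62 in WT (SE 0.507), with adjusted p of 1.81e-05 and 1.34e-05 by edgeR's quasi-likelihood test. Potri.015G003100.v3.0 rose by 1.72 in OE (SE 0.222, adjusted p 6.53e-06) and by 0.98 in WT (SE 0.192, adjusted p 0.000356). Potri.002G152500.v3.0 fell, with -1.11 in OE and -0.85 in WT (adjusted p 2.55e-06 and 2.45e-05). Potri.002G031800.v3.0 had the highest adjusted p over time in WT of the genes with a mean of at least 1 CPM (0.73, close to the 0.727 of Potri.001G460000.v3.0). It had 29.7 to 39.6 CPM in the OE libraries and 39.4 to 49.9 CPM in the WT libraries. In OE its adjusted p over time was 0.293, against 0.619 for Potri.001G460000.v3.0.

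Because 6 h and 96 h fall at different hours of the light cycle, 96 h was also set against 24 h, which is a whole number of days earlier. In OE 9 of the 32 genes were called higher at 96 h and 5 lower, where 12.7% and 13.8% of all genes were called. In WT 4 were called higher and 7 lower, where 14.8% and 15.5% of all genes were called. These counts rest on single libraries. In OE, leaving out the first library at 24 h brought the 14 calls to 4; leaving out the first at 96 h gave 9, and the second at 96 h 8. In WT, leaving out the first library at 24 h brought the 11 calls to 7; leaving out the first at 96 h gave 7, and the second at 96 h 6. Potri.007G120400.v3.0 had the largest change among called genes with a mean of at least 1 CPM. It had 4.54 and 4.77 CPM in OE at 96 h, and 9.27 and 9.68 CPM in WT at 96 h, below its 24 h values given above. It fell with a log2 fold change of -2.32 in OE (SE 0.233, adjusted p 1.73e-05) and -2.66 in WT (SE 0.219, adjusted p 2.09e-06) by the same test. Potri.015G003100.v3.0 was called higher at 96 h than at 24 h in OE (1.46, SE 0.215, adjusted p 0.000299), and in WT it had a log2 fold change of 0.07 (SE 0.182, adjusted p 0.799). Whether that change differed between the genotypes was not tested, since the rule used the difference between them.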

How the data were processed

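The genes and lists were chosen with earlier results of these data known. The count column, whole numbers per gene model as deposited by the authors, was the basis of all CPM and tests. The deposited FPKM column was made by the authors and used for levels per length. The deposited normalized column is a signal in which the authors divided or multiplied each library by a single factor, and served as an alternative. The submitters' processing notes list TopHat2 2.1.1 and HTSeq 0.6.0 with no role or order; for build, annotation and strand setting, the label fields read here give nothing. In 23.7 to 31.9% of the gene models with counts, the count exceeded the normalized value over its factor by up to 1.22 (tolerance 0.05 counts plus 0.001 of the value), so a count of 1 may stand for less.

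Time within a genotype was tested with R 4.3.3 and edgeR 4.0.16 (filterByExpr, TMM, 1 group-means model over all 20 libraries, 10 residual degrees of freedom, glmQLFit and glmQLFTest, Benjamini-Hochberg over 26391 genes). The test was also run on simulated counts, drawn independently for each library from the fitted dispersions. Such counts obey the fitted model, so they cannot show how the test behaves on the real libraries. Alternatives included DESeq2 1.42.0. SE is the log2 fold change over the square root of F. Replicate numbers only name libraries.

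Named genes were the 12 with the lowest mean difference (mean CPM of at least 1), the 8 with the highest FPKM, the longest run, the 5 with the smallest adjusted p over time in WT, the gene with the highest such p, the 3 genes on each side of the threshold and the 3 most like the first gene. The planned lists by product, tissue markers and promoter motifs could not be formed without gene names and sequences.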

Additional observations from a re-analysis of the deposited data

Results flagged for a closer look

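For 2 genes, both libraries moved one way between 6 h and 96 h in OE and both the opposite way in WT; the difference between the genotypes was not tested. Potri.002G031800.v3.0 stood at 0.91 times its 6 h level at 96 h in OE and at 1.13 times in WT, and neither change was called (edgeR adjusted p 0.129 in OE and 0.224 in WT). Potri.010G164900.v3.0 stood at 2.94 times its 6 h level in OE and at 0.706 times in WT. It had 25 and 26 counts in OE at 96 h, against 10 and 3 counts in OE at 6 h, and in WT 37 and 30 counts at 96 h, against 30 and 36 at 6 h. The edgeR adjusted p was 0.0472 in OE, lost without any of 14 single libraries (0.0503 to 0.219), and 0.336 in WT.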

How the results depend on the processing

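With 1 library left out, 34 to 45 genes met the rule, the 33 among them by construction, since fewer conditions apply. On the 4 times other than 6, 12, 24, 48 or 96 h, it was met by 69, 68, 47, 70 or 72 genes, again including the 33 by construction. This alternative was added after the data were seen. TMM scaling kept all 33 and gave 38, while deposited FPKM kept 28 of 34, the normalized column 31 of 38 and counts thinned to the smallest total 20 of 22. The median mean difference of -0.69 was -0.79 with 0.1 CPM added and -0.34 with 5 CPM added, where low genes are held nearer 0, -0.73 to -0.68 with 1 library left out and -0.56 without the chromosome 1 run (added later). No mean difference changed sign, which the rule fixed in advance when 1 library is left out or another CPM value is added. Genes called at 96 h against 24 h numbered 4 to 14 in OE and 6 to 11 in WT with 1 library left out, and 9 in OE with the 10 OE libraries alone. Without the run, added later, 22 tested genes remained. At 96 h against 6 h in WT, 12 were called, 7 higher and 5 lower (all genes tested: 30.2% and 30.2%). At 96 h against 24 h in OE, 8 were called, 4 higher and 4 lower (all genes: 12.7% and 13.8%). In WT 4 were called at 96 h against 24 h, 0 higher and 4 lower (all genes: 14.8% and 15.5%). Over time 14 were called in OE and 14 in WT (all genes: 63.5% and 69.3%). Counts called over time and at 96 h against 6 h stayed within 1.5 times under the other alternatives. No paired analysis was possible because the labels carry no replicate numbers.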
